A study of Mus musculus with 6 samples.

Results

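The Serpin family was followed in the prostates of mice given slow-release pellets of testosterone and estradiol. The members are all genes of the deposited table whose symbol is Serpin, a clade letter from a to i, a number and any further letter, which gave 64 of 34745 genes under 63 symbols (Serpinb10 stands for 2 gene identifiers). The T + E2 group was 3 male C57BL/6 mice that carried a subcutaneous pellet of both hormones for 12 weeks, replaced each month, and the CON group was 3 male C57BL/6 mice that only had the skin incised and closed, with no hormone-free pellet named. All were young at the start, each library is the prostate of 1 mouse, and the lobes taken are not given in the sources used here. The comparison asks which genes of the prostate differ after the hormone treatment, used as a mouse model of benign prostatic hyperplasia.

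Serpins are proteins of a shared fold, and most of them inhibit proteases. An inhibitory serpin offers an exposed loop as bait, and when a serine or cysteine protease cuts it, the serpin snaps shut and traps the enzyme in a covalent complex that cells clear through lipoprotein receptors. Secreted serpins of clades A, C, D, E, F and G control clotting, fibrinolysis, complement and inflammation, the clade B serpins mostly stay inside the cell, and a few members have lost inhibition and serve as hormone carriers, chaperones or signals. The prostate secretes many proteases into its fluid, and serpins are among the inhibitors that hold such enzymes in check.

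Reads counted on genes came to between 14816146 and 16555549 per mouse, so 3 counts, taken here as the smallest amount told from none, were worth 0.183 to 0.208 CPM (counts scaled to library size, with TMM factors). The luminal prostate markers were present in every mouse, all 9 of them, with a summed level of 40200 to 53600 CPM in the CON group and 17400 to 19400 CPM in the T + E2 group. CON mouse 2 stood apart with 10300 CPM of 8 seminal vesicle markers, against 0.629 and 4.11 CPM in the other CON mice, and T + E2 mouse 2 had 643 CPM. The same CON mouse had 158 CPM of 5 fat markers, where the other 5 mice had 12.9 to 42 CPM. None of this was used to choose samples, and values without CON mouse 2 are given where they move a result.

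Of the 64 Serpin genes, 27 had no count in any mouse, 10 had at most 3 counts in every mouse, 11 had more than that somewhere but too few for the test, and 16 were tested. Most of the family thus had few or no counts in the deposited table. Some of these genes overlap each other. Serpina1d overlaps Serpina1b by 9999 bases and Serpinb3c overlaps Serpinb3b by 7161 bases, and the 2 Serpinb10 identifiers share 11565 bases. Similar transcripts were searched for the 16 tested members only. How reads shared between genes were counted is not given in the sources used here, so few counts need not mean little RNA. The genes without a count were Serpina6 and Serpina7, carriers of corticosteroid and thyroid hormone in plasma, Serpina10, Serpina12, Serpina5 (protein C inhibitor), Serpina11, Serpina16, Serpina1a, Serpina1c, Serpina3a, Serpine3, Serpini2, Serpinb13, 1 of the identifiers of Serpinb10, Serpinb1b, Serpinb1c, Serpinb6d, the 4 genes Serpinb3a to Serpinb3d and the 6 genes Serpinb9b to Serpinb9g. The genes that never exceeded 3 counts were Serpinb2, Serpinb6e, Serpinb7, the other Serpinb10 identifier, Serpinb12, Serpinf2, Serpina1b, Serpina1d, Serpina1e and Serpina1f. The plasma antitrypsin genes Serpina1a to Serpina1f had together 1 count in the CON group and 4 counts in the T + E2 group. The 6 liver markers summed to 0.993 to 1.95 CPM in the CON group and 3.67 to 7.06 CPM in the T + E2 group. Of these, Alb (albumin) was called higher, with 0, 4 and 2 counts in the CON group and 54, 85 and 28 in the T + E2 group (log2 fold change 4.71, adjusted p = 0.00273, edgeR). Alb entered the test only through its T + E2 counts. Ttr and Apoa2 did not pass (adjusted p = 0.934 and 0.172, edgeR), and Apoa1, Fgb and Ahsg had at most 4 counts in any mouse.

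By level per length of gene, as the authors' FPKM (fragments scaled to gene length and library size), the family was led by few genes. In the CON group the order was Serping1 (C1 inhibitor, which blocks the first complement proteases) at 80.9 ± 11.2 FPKM, Serpinh1 (the collagen chaperone of the endoplasmic reticulum) at 35.6 ± 9.49, Serpine2 at 17.2 ± 1.33, Serpinb6a at 16.7 ± 0.317, Serpinb1a at 13.8 ± 2.43 and Serpina3n at 13.6 ± 5.72 (SD, n = 3). The values of Serpine2 and Serpinb6a overlapped, and those of Serpina3n, at 9.98 to 20.2 FPKM, spanned those of Serpine2, Serpinb6a and Serpinb1a, so the order below Serpinh1 is mostly not set. In the T + E2 group Serpine2 came first at 138 ± 13.2 FPKM, followed by Serping1 at 101 ± 7.30, Serpinh1 at 42.2 ± 5.35, Serpina3n at 19.4 ± 2.16, Serpinb6a at 17.2 ± 1.25 and Serpinb11 at 14.95 ± 2.55. The 3 values of Serpine2 lay above all 3 of Serping1, and the values of Serpina3n, Serpinb6a and Serpinb11 overlapped. Serpine2 made up 7.77 to 9.87% of the summed FPKM of the family in the CON group, against 36.0 to 42.3% under T + E2. The summed FPKM of the other members was 171 to 197 in the CON group, against 204 to 224 under T + E2.

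**Figure D1:**
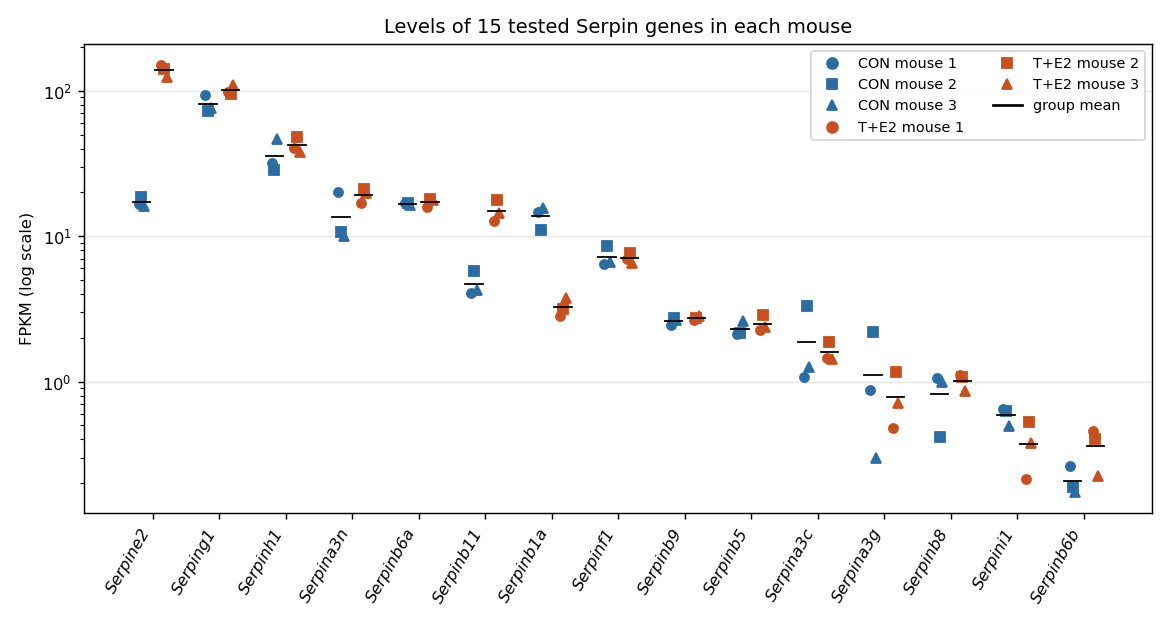
Levels of 15 of the 16 tested Serpin genes as FPKM on a log axis, with 1 point per mouse (blue, CON; orange, T + E2; the symbol gives the mouse number) and a black line at each group mean. Serpine2 lies at 16.3 to 18.7 FPKM in the CON group, against 124 to 150 FPKM under T + E2, and Serpinb11 and Serpinb1a are the other genes of clear separation.

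In the comparison of the groups, 3 of the 16 tested members passed an adjusted p of 0.05 (18.8%), where 19.6% of all 15580 tested genes did. The higher ones were Serpine2 and Serpinb11 (10.4% of all tested genes were higher) and the lower one was Serpinb1a (9.25% were lower). Each also changed by more than 1 on the log2 scale, the second threshold for a differentially expressed gene (DEG), which 7.64% of all tested genes met, 4.27% upward and 3.38% downward. The share of the family called is near that of all genes, so the family as a whole did not stand out by its number of calls. The median log2 fold change of the 16 was 0.13, beside -0.0021 over all tested genes. The groups did not overlap for 5 of the 16 (31.2%), beside 40.7% of all tested genes. Serpine2, Serpinb11, Serping1 and Serpinb9 were those higher under T + E2 and Serpinb1a the one lower, where 20% and 20.7% of all tested genes were. Tissue RNA does not separate a change in the number of cells of a type from a change in RNA per cell, and this holds for every value here.

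**Figure D2:**
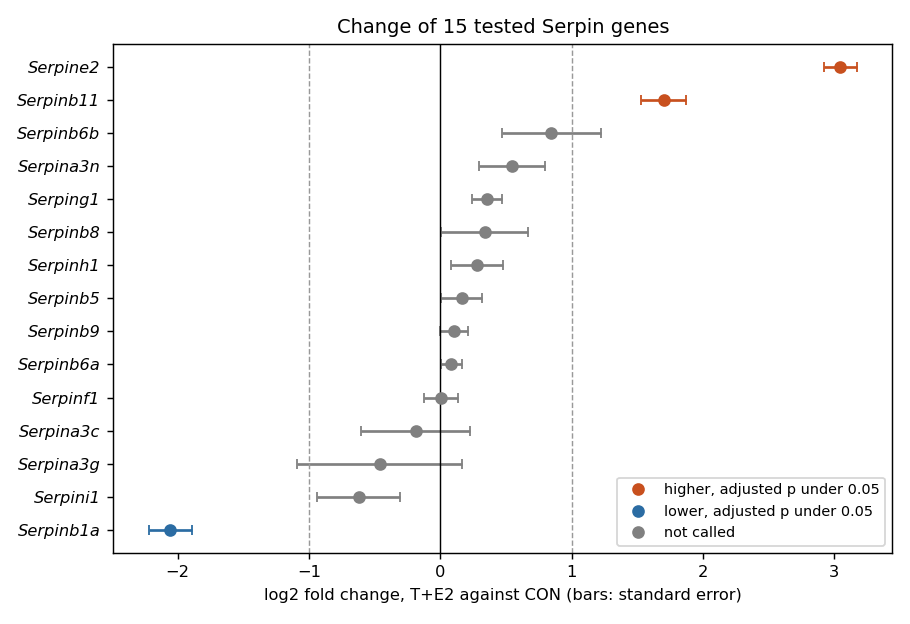
Log2 fold change of 15 of the 16 tested Serpin genes, T + E2 against CON, with standard errors from edgeR; dashed lines mark a change of 1 in either direction. Serpine2 (3.05) and Serpinb11 (1.70) lie to the right, Serpinb1a (-2.06) to the left, and the 12 grey genes between -0.62 and 0.85 did not pass an adjusted p of 0.05.

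Serpine2, also called protease nexin, is a secreted inhibitor of thrombin, urokinase and other trypsin-like proteases that binds to heparan sulphate at cell surfaces. Its gene (ENSMUSG00000026249) lies on the minus strand of chromosome 1, from 79794197 to 79861180 of GRCm38. It had 144, 161 and 144 CPM in the CON group, against 1381, 1250 and 1078 CPM under T + E2. The lowest T + E2 value was far above the highest CON value. The level rose 8.27-fold, a log2 fold change of 3.05 with a standard error of 0.13 (adjusted p = 8.55e-06, edgeR). Without CON mouse 2 the change was 3.10, and without T + E2 mouse 2 it was 3.04. No other gene of the table overlaps it, and its transcript had no look-alike in another gene (90% identity, 100 aligned bases).

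Serpinb11 is a clade B serpin of epithelia whose mouse form inhibits trypsin-like proteases. Its gene (ENSMUSG00000026327, plus strand of chromosome 1, from 107361198 to 107380475) had 9.67, 13.7 and 10.4 CPM in the CON group, against 32.1, 43.2 and 34.8 CPM under T + E2. The groups were apart. It rose 3.26-fold, a log2 fold change of 1.70 with a standard error of 0.17 (adjusted p = 0.000485, edgeR), and changed by 1.87 without CON mouse 2 and by 1.57 without T + E2 mouse 2.

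Serpinb1a is the mouse counterpart of the inhibitor of leukocyte elastase, which also blocks cathepsin G in neutrophils and macrophages and is made in epithelia too. Its gene (ENSMUSG00000044734, minus strand of chromosome 13, from 32842092 to 32851185) had 44.1, 33.2 and 48.7 CPM in the CON group, against 9.13, 9.8 and 11.3 CPM under T + E2. All T + E2 values were under the lowest CON value. It was 4.16-fold lower in the T + E2 group, a log2 fold change of -2.06 with a standard error of 0.16 (adjusted p = 0.00016, edgeR), and -2.20 without CON mouse 2. Its transcript is 93.8% identical to that of Serpinb1c over 258 aligned bases, and Serpinb1c and Serpinb1b had no counts, so the summed counts of the Serpinb1 genes gave the same change of -2.06. The 3 proteases of neutrophils that this inhibitor is known for had too few counts for the test. Elane had 0 to 5 counts in a mouse, Ctsg 0 to 1 and Prtn3 4 to 9 in the CON group and 6 to 23 in the T + E2 group, and the 4 neutrophil markers summed to 0 to 4.51 CPM over all 6 mice.

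Several lists of tissue markers differed between the groups as well. The 5 urothelial markers summed to 422 to 642 CPM in the CON group and 1370 to 1700 CPM in the T + E2 group, mostly Upk1a and Upk1b. Upk1a, Upk1b and Upk2 were called higher. Upk3a had 0 counts in the CON group, against 5, 99 and 3 under T + E2. Krt20 had 2, 3 and 4 counts in the CON group, against 6, 120 and 1 under T + E2. Most counts of Upk3a and Krt20 thus came from T + E2 mouse 2. The 5 macrophage markers summed to 124 to 175 against 186 to 282 CPM, and Mrc1 and C1qa were called higher. Adgre1, Csf1r and Cd68 overlapped between the groups and did not pass (adjusted p = 0.475, 0.360 and 0.521, edgeR). The 6 smooth muscle markers summed to 4080 to 5070 against 3580 to 3920 CPM, and Acta2 (-0.50, adjusted p = 0.0137, edgeR) and Des (-0.38, adjusted p = 0.0440, edgeR) were called lower. Myh11, Tagln, Cnn1 and Actg2 did not pass (adjusted p = 0.297, 0.168, 0.173 and 0.206, edgeR). Adam7, of the epididymis list, had 0 counts in every CON mouse and 158, 81 and 139 counts in the T + E2 mice. The rest of that list did not follow it. Lcn5, Lcn8 and Lcn9 had no count in any mouse, and Crisp1, Defb15 and Rnase10 had too few for the test. Adam28 did not pass (0.21, adjusted p = 0.361, edgeR). The sum of the 4 basal markers overlapped between the groups, at 155 to 257 against 245 to 313 CPM. So did that of the 5 fibroblast markers, at 939 to 1310 against 1100 to 1550 CPM. Of the basal markers, Trp63 was called higher (0.57, adjusted p = 0.0108, edgeR), and Krt5, Krt14 and Krt15 did not pass. The part of these markers in the Serpin changes was not tested.

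The promoters of the 2 genes that rose are shown because they are unlike each other. The table of RefSeq promoters used here (GRCm38.p6) matched 53 of the 63 symbols, Serpinb1a not among them, and the 250 bases before the RefSeq start site are given here, 5′ to 3′ on the strand of the gene. Capitals mark GC boxes, the hexamer GGGCGG or its reverse complement CCGCCC, with overlapping matches joined. The window of Serpine2 is chr1:79858666-79858915 on the minus strand, and that of Serpinb11 is chr1:107362064-107362313 on the plus strand. Both lie inside the longer gene of the deposited table, so neither is upstream of the gene as counted.
Serpine2: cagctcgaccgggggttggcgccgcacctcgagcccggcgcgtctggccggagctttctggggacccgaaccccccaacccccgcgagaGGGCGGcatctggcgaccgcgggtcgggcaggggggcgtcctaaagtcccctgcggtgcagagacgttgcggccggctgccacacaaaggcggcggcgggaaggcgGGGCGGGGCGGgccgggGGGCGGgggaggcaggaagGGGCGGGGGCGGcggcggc
Serpinb11: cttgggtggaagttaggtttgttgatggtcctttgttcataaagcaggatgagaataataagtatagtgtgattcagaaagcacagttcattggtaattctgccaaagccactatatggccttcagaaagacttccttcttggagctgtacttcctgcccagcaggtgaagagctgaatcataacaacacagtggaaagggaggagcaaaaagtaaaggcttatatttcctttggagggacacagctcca
The Serpine2 window holds 78.8% G and C with 34 CG pairs and 6 GC boxes, and 98.3% of all 32851 promoter windows have a lower GC share. The Serpinb11 window holds 42.8% G and C, no CG pair and no GC box. Over all windows the median GC share is 52.4%, and 32.7% hold a GC box on either strand. Neither window holds the hexamers AGAACA (the core of androgen response elements, in 16.1% of windows) or AGGTCA (the core of oestrogen response elements, in 14.0% of windows), nor TATAAA (12.4%), on either strand. These matches describe 250 bases only, and the GC box and TATAAA were searched after the sequences had been seen.

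The other secreted serpins described here did not pass the edgeR test over all 6 mice. Serping1 had 261, 202 and 216 CPM in the CON group, against 292, 271 and 305 CPM under T + E2. The groups did not overlap, by a narrow margin. The log2 fold change was 0.36 with a standard error of 0.12 (adjusted p = 0.0669, edgeR). It passed with DESeq2 (adjusted p = 0.0268) and without CON mouse 1, the highest of its group (0.47, adjusted p = 0.0268, edgeR), and in none of the other 12 alternatives. Without CON mouse 2 the change was 0.28 (adjusted p = 0.191, edgeR), the highest p of the 14.

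Serpina3n, an acute-phase inhibitor of cathepsin G and granzyme B, had 40.9, 21.4 and 20.7 CPM in the CON group, against 36.7, 44 and 40.7 CPM under T + E2. CON mouse 1 was as high as the T + E2 mice, and the other 2 CON mice were lower. The log2 fold change was 0.55 with a standard error of 0.25 (adjusted p = 0.162, edgeR), and without CON mouse 1 it was 0.94 (adjusted p = 0.00331). The call thus turned on 1 mouse.

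Serpinf1 (pigment epithelium-derived factor, a serpin that does not inhibit proteases and limits vessel growth) lay at 25.2 to 33.5 CPM in the CON group and 25.7 to 30.6 CPM in the T + E2 group. Its log2 fold change was 0.0055 with a standard error of 0.13, and the sign differed between settings. Serpini1, an inhibitor of tissue plasminogen activator best known from neurons, had 4.02 to 5.17 CPM in the CON group and 1.8 to 4.32 CPM in the T + E2 group (log2 fold change -0.62, standard error 0.31, adjusted p = 0.202, edgeR).

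The clade B serpins lie in clusters on chromosome 1 (13 genes over 749 kb) and chromosome 13 (15 genes over 1161 kb). On chromosome 1, 3 of the 13 were tested. Serpinb5 (maspin, a clade B member of basal epithelium that does not inhibit proteases), at the start of the cluster, had 10 to 12.6 CPM in the CON group and 11.2 to 13.9 CPM in the T + E2 group. Serpinb8, an inhibitor of furin, had 3.15 to 8.01 and 6.61 to 8.99 CPM. Their log2 fold changes were 0.16 and 0.34 (standard errors 0.15 and 0.33, adjusted p = 0.494 and 0.503, edgeR). CON mouse 2 had the low value of Serpinb8, and without it the change was 0.018. Of the genes on either side of Serpinb11, Serpinb3c had no count and Serpinb7 had 1 count in all.

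On chromosome 13, Serpinb1a lies at the start of the cluster and Serpinb6a at its end, and 4 of 15 genes were tested. Serpinb6a, an inhibitor of cathepsin G and trypsin-like proteases, was even over the mice, at 145, 143 and 144 CPM in the CON group and 145, 160 and 154 CPM in the T + E2 group. Its log2 fold change was 0.086 with a standard error of 0.081. It overlaps Ripk1 and Nqo2 on the opposite strand, and whether the counting used the strand is not given in the sources used here. Serpinb9, an inhibitor of granzyme B that protects immune cells from their own granules, had 14.7 to 16.5 CPM in the CON group and 17 to 17.1 CPM in the T + E2 group. The groups did not overlap, but the log2 fold change was 0.11 with a standard error of 0.11 (adjusted p = 0.506, edgeR). Serpinb6b had 10 to 14 counts in the CON group and 12 to 25 in the T + E2 group (log2 fold change 0.85, standard error 0.38, adjusted p = 0.154, edgeR), and its transcript is 90.2% identical to that of Serpinb6a over 447 aligned bases, so reads could be shared. Summed over the 5 Serpinb6 genes the change was 0.09 and over the 7 Serpinb9 genes 0.11, and neither passed.

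**Figure D3:**
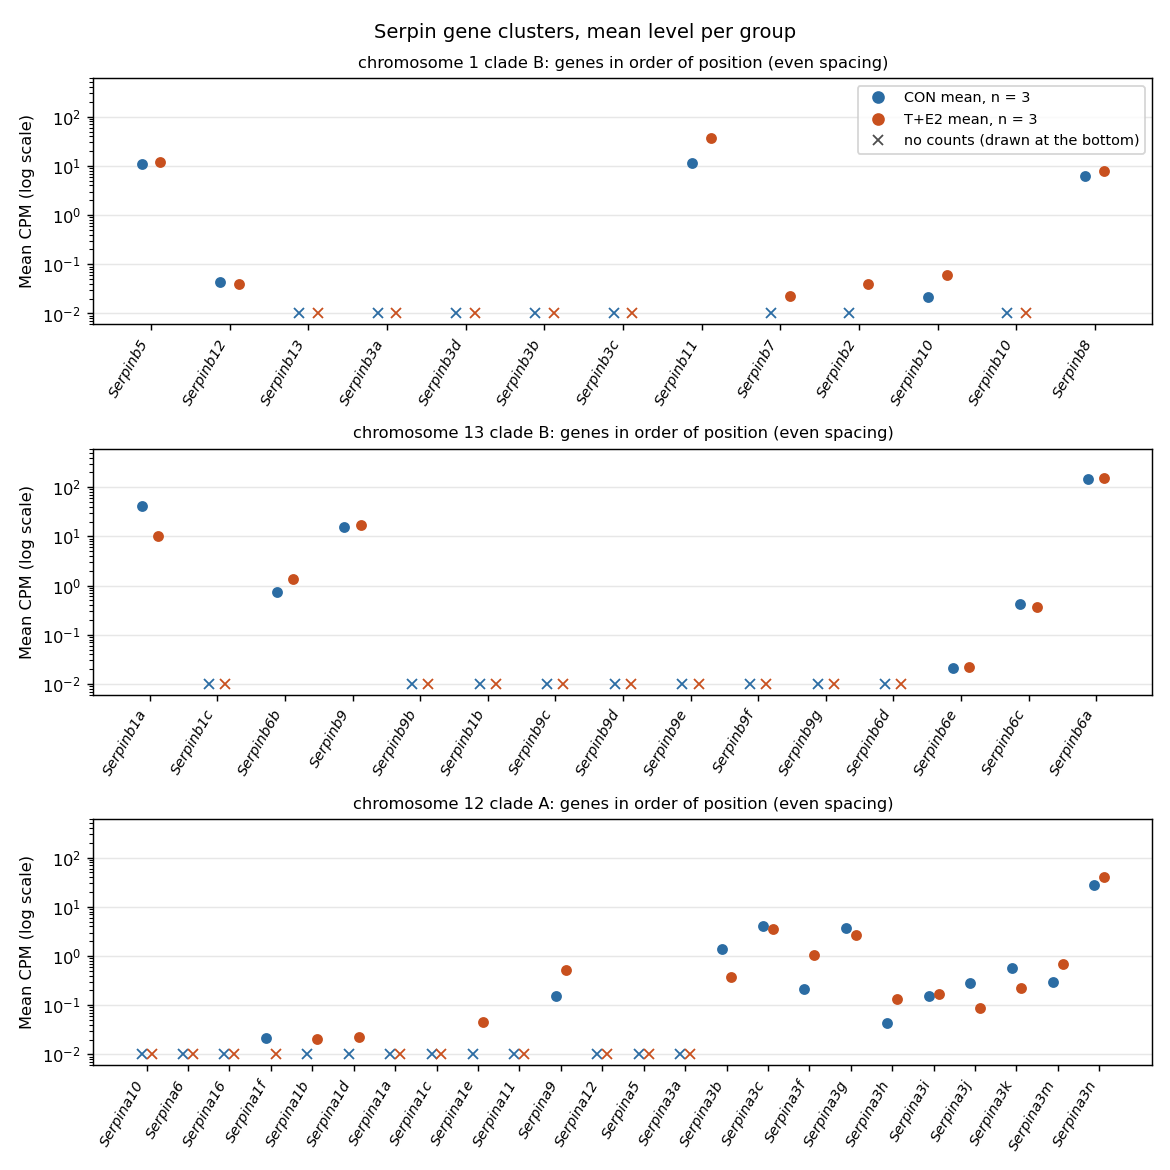
Mean CPM per group (n = 3 mice, log axis) of every Serpin gene in the 3 clusters, in order of position with even spacing; crosses at the bottom mark groups with no counts. Most genes of each cluster have no or few counts. Serpinb11 and Serpinb1a differ between the groups, and the other tested genes of the clusters did not pass an adjusted p of 0.05 (edgeR).

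The clade A genes form a cluster of 24 on chromosome 12 over 799.5 kb, with 3 tested, for which the lowest adjusted p was 0.162 (edgeR). After Serpina3n, the highest were Serpina3c and Serpina3g. Serpina3c had 2.32, 7.1 and 2.83 CPM in the CON group, against 3.39, 4.2 and 3.14 CPM under T + E2. Serpina3g, which is found in T cells and blocks lysosomal cathepsins, had 2.85, 7.1 and 1.01 against 1.66, 3.9 and 2.34 CPM. CON mouse 2 was the highest of all 6 for both. Their log2 fold changes were -0.19 and -0.46 (standard errors 0.41 and 0.63) and turned to 0.47 and 0.46 without that mouse, with no call either way. The low counts of Serpina3b, Serpina3k and Serpina3j had the same high mouse, with 59, 25 and 13 counts there and at most 14, 5 and 3 counts in any other. This is the mouse with the most RNA of seminal vesicle and fat markers, and their part in these values was not tested. The transcript of Serpina3g is 92.1% identical to that of Serpina3h, so single genes of this group are uncertain. The 11 Serpina3 genes together had 710, 647 and 409 counts in the CON group, against 636, 914 and 727 under T + E2, a log2 fold change of 0.36 with a standard error of 0.21 (adjusted p = 0.259, edgeR).

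**Figure D4:**
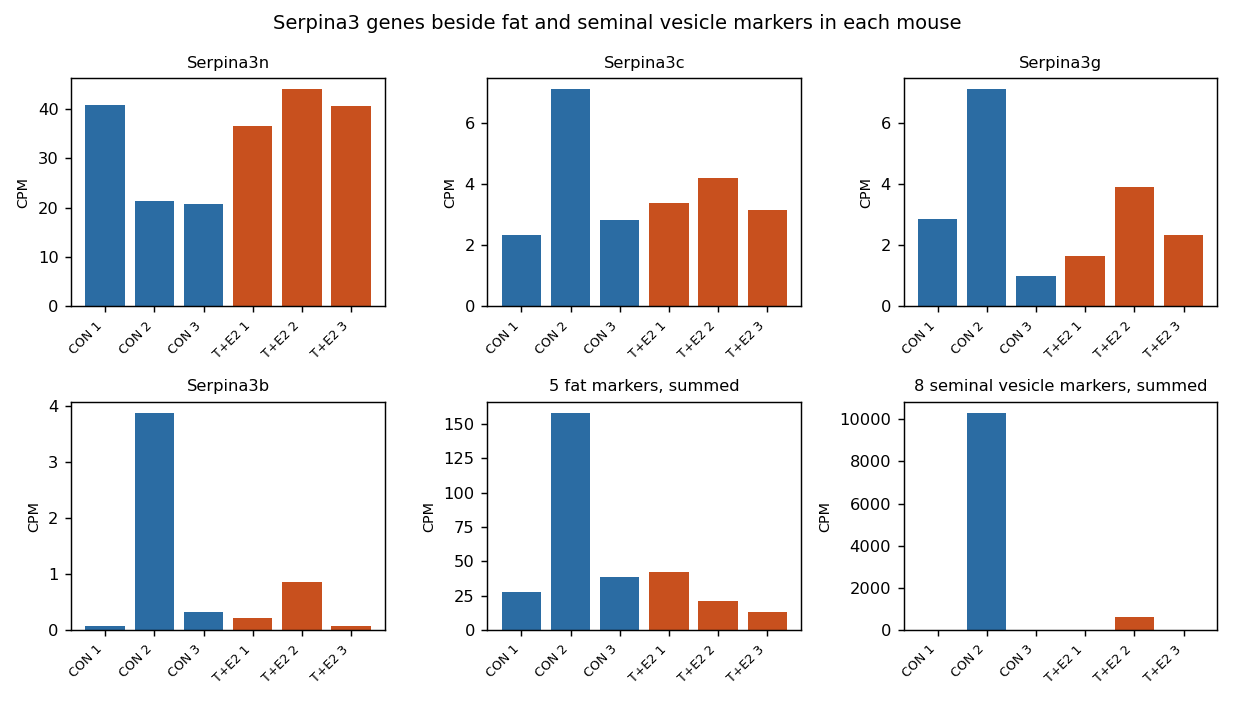
CPM of 4 Serpina3 genes and summed CPM of fat and seminal vesicle markers in each mouse (blue bars, CON; orange bars, T + E2; all axes start at 0). Serpina3c, Serpina3g and Serpina3b are highest in CON mouse 2, which also has 158 CPM of fat and 10300 CPM of seminal vesicle markers, whereas Serpina3n is low in that mouse.

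Serpina3f had 6, 1 and 3 counts in the CON group, against 9, 25 and 15 under T + E2, too few for the test. The groups did not overlap. With no filter on low counts its log2 fold change was 2.24 (standard error 0.61, adjusted p = 0.0372, edgeR). Serpina9 had 3, 2 and 2 counts in the CON group, against 4, 3 and 17 under T + E2, so its higher mean came from 1 mouse. Serpina3h and Serpina3i were at or under 3 counts in the CON group and at most 4 in the T + E2 group, and Serpina3j was at or under 3 counts in the T + E2 group. Serpina3m had 4 to 5 counts against 9 to 12, and it overlaps Serpina3k by 7659 bases on the same strand. Serpinb6c had 4 to 9 counts against 3 to 10. Of the clotting inhibitors made by the liver, Serpinc1 (antithrombin) had 4 to 6 counts in the CON group, against 0 to 10 under T + E2, and it overlaps Zbtb37 by 2942 bases on the opposite strand. Serpind1 (heparin cofactor) had 5 to 9 against 0 to 6 and overlaps Pi4ka on the opposite strand. Serpinf2 (antiplasmin) had at most 1 count in any mouse.

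Serpinh1 binds newly made procollagen and helps it fold. It had 81.3, 73 and 122 CPM in the CON group, against 111, 127 and 98.1 CPM under T + E2, and the groups overlapped (log2 fold change 0.28, standard error 0.20, adjusted p = 0.343, edgeR). Without CON mouse 2 the change was 0.14. Of 16 genes for collagens and their folding enzymes, all were tested, 4 rose (25.0%, beside 10.4% of all tested genes called higher) and 12 did not pass, with log2 fold changes from -0.41 to 0.56. The 4 that rose were the lysyl hydroxylases Plod2 and Plod1, the prolyl hydroxylase P3h1 and the prolyl isomerase Fkbp10. Plod2 had 26.4, 30 and 31.2 CPM in the CON group, against 95.5, 88.9 and 72.1 CPM under T + E2, and its log2 fold change was 1.55 with a standard error of 0.13 (adjusted p = 0.000195, edgeR). Plod1 changed by 0.67, P3h1 by 0.65 and Fkbp10 by 0.44 (adjusted p = 0.00932, 0.00861 and 0.0387, edgeR). Fkbp10 was not called with limma, with the replicate block or when any of the 6 mice was left out. The fibrillar collagens had log2 fold changes of -0.41 for Col1a1, -0.16 for Col1a2 and -0.12 for Col3a1 (adjusted p = 0.200, 0.476 and 0.749, edgeR). The median of the list was 0.14.

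The proteases that serpins act on, with their cofactors and receptors, were followed as a list of 51 genes, of which 34 were tested, 7 rose, 3 fell and 24 did not pass (29.4% called, beside 19.6% of all tested genes, median 0.14). The plasminogen activators, known targets of Serpine2, did not pass. Plat had 18, 13.4 and 18.1 CPM in the CON group, against 17.2, 22.5 and 18.7 CPM under T + E2 (log2 fold change 0.24, standard error 0.16). Plau had 7.36 to 11.4 and 7.61 to 10.5 CPM (0.0022, standard error 0.20). The log2 fold change was 0.56 for the urokinase receptor Plaur (adjusted p = 0.139, edgeR) and -0.71 for Vtn (vitronectin, an adhesion protein of plasma and matrix) (adjusted p = 0.133, edgeR).

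F2, which encodes prothrombin, the precursor of another target of Serpine2, was low and lower in the T + E2 group. It had 1.46, 0.92 and 1.57 CPM in the CON group, against 0.208, 0.183 and 0.400 CPM under T + E2 (log2 fold change -2.29, standard error 0.43, adjusted p = 0.00837, edgeR). The T + E2 values stand for 3, 3 and 6 counts, so F2 entered the test only through its CON counts. The FPKM filter (at least 1 in at least 3 samples) removed F2 before the test, at means of 0.241 FPKM in the CON group and 0.0474 FPKM under T + E2. The thrombin receptor F2r did not pass (-0.12, standard error 0.18), and F2rl1, a receptor cut by trypsin-like proteases, rose by 0.58 (standard error 0.09, adjusted p = 0.0038, edgeR).

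Of the membrane proteases of epithelium, Hpn (hepsin) rose by 0.94 (standard error 0.17, adjusted p = 0.00744, edgeR) and Furin, the target of Serpinb8, by 0.57 (standard error 0.10, adjusted p = 0.00615, edgeR). St14, Tmprss2 and Prss8 did not pass, with log2 fold changes of 0.17, 0.034 and -0.63. Prss22, a tryptase of epithelia, rose from 0.389 ± 0.131 to 1.51 ± 0.417 CPM (SD, n = 3; log2 fold change 1.94, adjusted p = 0.0114, edgeR). These levels stand for 4, 8 and 6 counts in the CON group, against 15, 30 and 25 under T + E2. Prss22 thus entered the test only through its T + E2 counts, and the FPKM filter removed it before the test. The lysosomal cathepsins, cysteine proteases that some serpins trap, were led by Ctsb. It had 317, 323 and 308 CPM in the CON group, against 1089, 1115 and 916 CPM under T + E2, a 3.29-fold rise (log2 fold change 1.72, standard error 0.11, adjusted p = 5.25e-05, edgeR). Ctsh and Ctsl rose by 0.61 and 0.43 (adjusted p = 0.0113 and 0.0450, edgeR). Ctsl was not called with total-count scaling, with limma, with the replicate block or when any of the 6 mice was left out.

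The proteases that fell besides F2 were the mast cell chymases Mcpt4 and Cma1. Mcpt4 had 10.5, 9.66 and 7.04 CPM in the CON group, against 2.97, 4.87 and 1.87 CPM under T + E2 (log2 fold change -1.47, standard error 0.33, adjusted p = 0.0191, edgeR), and Cma1 changed by -0.80 (adjusted p = 0.0471, edgeR). Both are also mast cell markers, and the 6 markers of that cell summed to 28.7 to 42 CPM in the CON group and 15.5 to 24.4 CPM in the T + E2 group. Of the other mast cell markers, Kit was called lower (-0.99, adjusted p = 0.00699, edgeR). Tpsb2 and Cpa3, which are also proteases of the list, overlapped between the groups and did not pass (-0.56 and -0.53, adjusted p = 0.203 and 0.240, edgeR). Without CON mouse 1, or without T + E2 mouse 1, F2 was still called but Mcpt4 and Cma1 were not, although the values of Mcpt4 in the remaining mice did not overlap between the groups. Cma1 was also not called without CON mouse 2, T + E2 mouse 2 or T + E2 mouse 3. The same held for Cma1 with DESeq2, with no filter on low counts and with the replicate block. Lrp1, the receptor that takes up serpin complexes, had a log2 fold change of 0.21 with a standard error of 0.15 and did not pass.

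**Figure D5:**
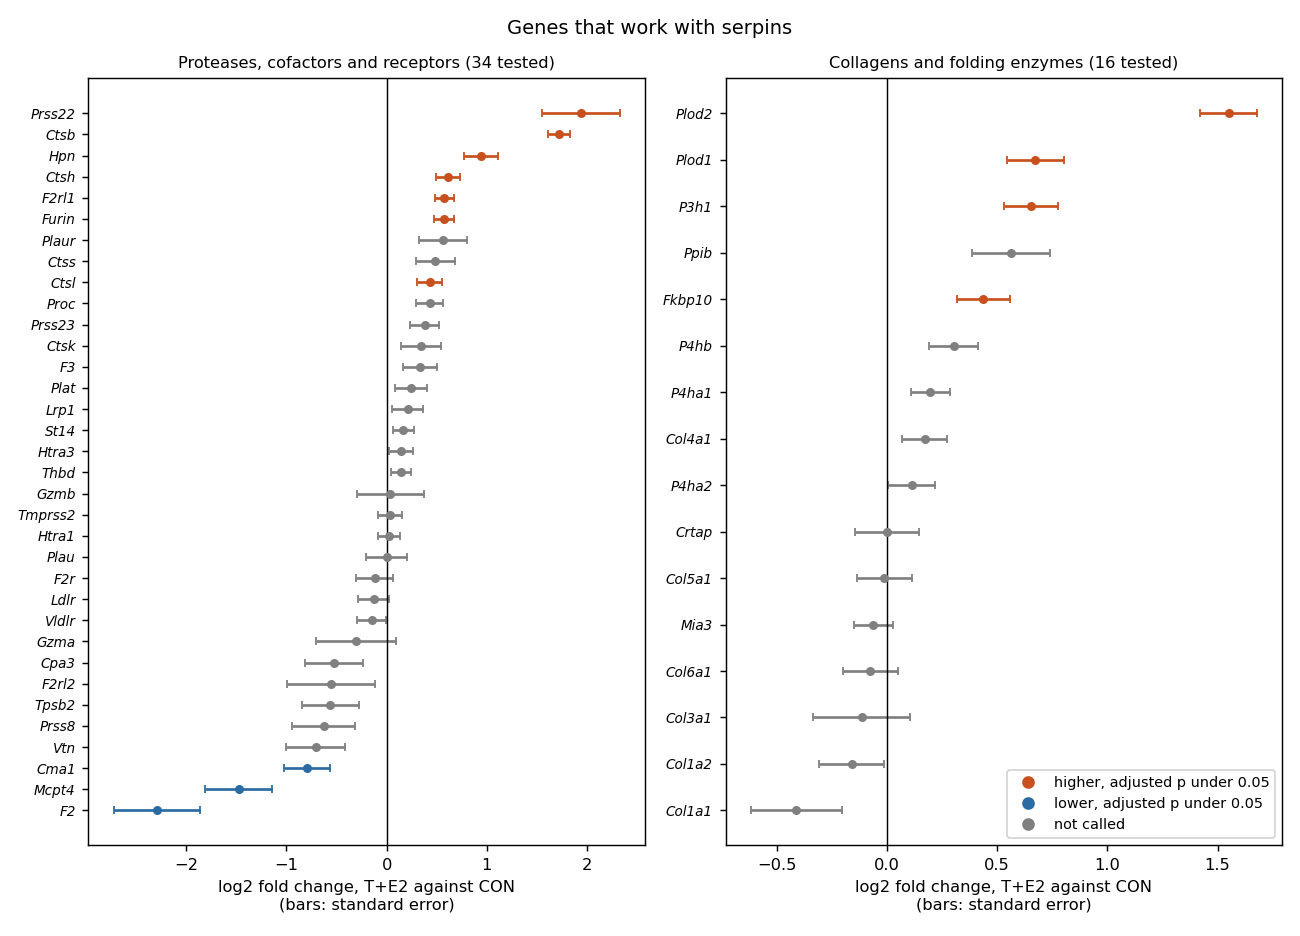
Log2 fold change with standard error of the tested genes that work with serpins, T + E2 against CON, with 34 proteases, cofactors and receptors on the left and 16 collagens and folding enzymes on the right (orange, higher; blue, lower; grey, not called). Prss22 (1.94) and Ctsb (1.72) lie at the top of the left panel and F2 (-2.29) at its foot, and Plod2 (1.55) leads the right panel. Prss22 and F2 entered the test only through their counts in the group where they are higher.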

How the data were processed

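RNA from prostate tissue of 3 CON and 3 T + E2 mice was sequenced as paired-end libraries. The submitters' processing notes name TopHat, Bowtie2 and HTSeq without a version; the genome build, annotation and use of strand are not given in the sources used here. The deposited table holds unnormalised whole-number read counts per gene and FPKM per gene as computed by the authors. Positions matched GENCODE M21 (GRCm38) for 58 of the 64 members.

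Counts were tested with edgeR 4.0.16 in R 4.3.3 (quasi-likelihood F test, TMM scaling, filterByExpr with a minimum count of 10 and total of 15, Benjamini-Hochberg adjustment over 15580 genes). Standard errors were derived from the fold change and its F statistic. A gene was called at an adjusted p under 0.05. The code was tested on simulated data. The biological coefficient of variation was 18.0%. Replicates were separate mice and differed by more than counting noise (chi-square per degree of freedom 17.8 to 39.0). An exact permutation test of 3 against 3 cannot go below 0.1 and was not used.

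A tested member that was not called counts in the totals but is not reported here. The members and lists were chosen with earlier results of these data known. Named were the other members, all called members with full values, the members of highest FPKM, and of the protease and collagen lists up to 8 called genes, with Plat, Plau, Plaur, Vtn and F2 in any case; F2r, St14, Tmprss2, Prss8, Lrp1, Elane, Prtn3, Ctsg, the collagens and the named marker genes were added after their values were seen. Alternatives were DESeq2 1.42.0, other scalings and filters, limma 3.58.1 on log2(FPKM + 0.1) and log2(FPKM + 1), a replicate block and leaving out each mouse.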

Additional observations from a re-analysis of the deposited data

How the results depend on the processing

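Serpine2, Serpinb11 and Serpinb1a kept their direction and their call in all 14 alternatives each, with log2 fold changes of 2.93 to 3.14, 1.48 to 1.87 and -2.20 to -1.79 and adjusted p of at most 0.000172, 0.00381 and 0.00208. The number of members called higher ranged from 2 to 5 when each mouse was left out; the 5 came without CON mouse 1, with Serpina3f, Serpina3n and Serping1 added, of which Serpina3f entered the test only through its T + E2 counts. Of the protease list, 1 to 3 genes were called lower when each mouse was left out. Serpinf1 changed sign with total-count scaling (-0.035), with the FPKM filter (-0.0018) and with limma at either pseudocount (-0.025 and -0.023), and ranged from -0.074 to 0.14 when each mouse was left out. Leaving out each mouse, the log2 fold change ranged from -0.47 to 0.47 for Serpina3c and from -0.91 to 0.46 for Serpina3g, with the sign changed without CON mouse 2 in both; the cause was not tested. Over all genes, 3061 were called, against 1929 without CON mouse 3 and 1978 without T + E2 mouse 2, and the 1191 DEGs became 561 with limma on log2(FPKM + 1).

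The replicate numbers are shared between the groups but name different mice, and same-numbered mice did not deviate together (correlations -0.0516, 0.0275 and 0.0463). With a replicate block the members called were the same 3 genes and 2174 genes were called in all. The log2 fold changes with the block were 3.04 for Serpine2, 1.71 for Serpinb11 and -2.04 for Serpinb1a. Members with few counts limit what can be said: 48 of 64 were not tested, and of the 37 tested with no filter only Serpina3f was called besides the 3.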
